A study of Caenorhabditis elegans with 4 samples.

Results

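The regions described here are the SMC-4 peaks of chromosome V in the nematode Caenorhabditis elegans. They comprise every chromosome V row of a peak list made for the whole series, 285 of its 1989 peaks on the 6 nuclear chromosomes. Each was set against the chromosome V peaks of the lists called from the 2 individual immunoprecipitates, 149 of 1174 nuclear peaks in replicate 1 and 54 of 296 in replicate 2. Chromatin immunoprecipitation followed by sequencing (ChIP-seq) recovers DNA crosslinked to a protein with an antibody, and a peak is a stretch where the caller found more of that DNA than its background. The 2 SMC-4 samples were precipitated with an affinity-purified rabbit polyclonal antibody, and 2 samples of input DNA were taken without antibody. All 4 came from wild-type N2 embryos of mixed stages, of hermaphrodites and males, cultured at 20 °C and crosslinked for 30 minutes with 2% formaldehyde. A peak is therefore an average over whole embryos and over every cell type and cell cycle stage in them. Input values were not analysed here. The labels do not say whether the replicates were separate cultures, and the spread between them may be technical.

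SMC-4 is an ATPase of the structural maintenance of chromosomes family. It pairs with MIX-1 to form the arms of condensin, the ring-shaped complex that extrudes and compacts DNA loops, and it is shared by the mitotic condensins I and II of the worm. The condensin of X dosage compensation carries DPY-27 in its place. Worm autosomes have arms rich in repeats and in fast-evolving gene families such as chemoreceptors, and centres rich in conserved genes with little recombination. Chromosome V is the longest, and it carries the tandem array of 5S ribosomal RNA genes. Condensin in budding yeast is known to gather at ribosomal RNA and transfer RNA genes. No gene was assigned to a peak here, because the available gene table is of another genome build (WBcel235), so each region is named by its WormBase WS220 position alone and whether it holds a gene, exon or repeat was not tested.

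Chromosome V peaks were mostly short, with a few long exceptions. The whole-series median width was 229 bp, against 225 bp on the other 5 chromosomes. The middle 50% ran from 175 to 340 bp, and 247 of 285 were under 500 bp. The replicate medians were 417 bp in replicate 1 and 564 bp in replicate 2, against 374 and 360.5 bp on the other chromosomes. The widest V peaks of the 3 lists were 5626, 6905 and 6203 bp. The peaks covered 99.1 kb of the chromosome in the whole-series list, 113 kb in replicate 1 and 57.4 kb in replicate 2, which is 0.474%, 0.542% and 0.274% of its span. Peak density was 13.6 per Mb in the whole-series list (exact Poisson interval 12.1 to 15.3), 7.12 in replicate 1 (6.02 to 8.36) and 2.58 in replicate 2 (1.94 to 3.37). V was the sparsest of the 6 chromosomes in the whole-series list. Its complete windows of 1 Mb held 13.7 peaks on average, against 16.6 to 27.3 on the others. V made up 20.9% of the summed spans but held 14.3%, 12.7% and 18.2% of the nuclear peaks in the 3 lists.

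The score is the peak caller's own value for a peak, on a scale that is not stated, and it is compared within a list only unless said otherwise. Whole-series scores on V ran from 1.51 to 29.8 with a median of 5.52. Replicate 1 scores ran from 51.1 to 3100, the value at which scores of the replicate lists stop, with a median of 99.9. Replicate 2 scores ran from 50.7 to 855 with a median of 98.3. Wider peaks scored higher: over V peaks, width and score had a Spearman's rho of 0.503 in the whole-series list, 0.670 in replicate 1 and 0.537 in replicate 2. On the other 5 chromosomes rho ran from 0.442 to 0.588, from 0.620 to 0.763 and from 0.690 to 0.827 in the same 3 lists. The replicate 2 value of V thus lay below that of each other chromosome, a difference that was not tested. Peaks of a list share their library and depth, so these coefficients are descriptions across peaks.

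Overlap with the replicate lists was most frequent among the stronger V peaks. How the replicates entered the whole-series list is not stated, so this overlap cannot be read as independent recovery. Of the 285 whole-series peaks, 164 were overlapped by a replicate 1 peak by at least 1 bp, 57.5% (Clopper-Pearson interval 51.6 to 63.4), against 57.4% of all nuclear peaks. Replicate 2 overlapped 65, 22.8% (18.1 to 28.1), against 16.3% of all nuclear peaks. Both overlapped 62, 21.8% (17.1 to 27.0), against 15.3% of all nuclear peaks. Another 102, or 35.8%, were overlapped by replicate 1 only, against 43.1% on the other 5 chromosomes. Replicate 2 alone overlapped 3, and 118, or 41.4%, were overlapped by neither, against 41.7% on the other chromosomes. Their median scores were 13.3 for the 62 peaks of both replicates, 6.36 for replicate 1 only, 3.12 for replicate 2 only and 4.41 for neither. The 118 peaks of neither replicate reached a score of 11.9, while the 102 of replicate 1 only reached 25.9.

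Ordered by whole-series score, the share of V peaks found in both replicates was 10.5% in the lowest 57 peaks, 5.26%, 7.02% and 22.8% in the following sets of 57, and 63.2% (49.3 to 75.6) in the highest 57. Replicate 1 overlapped 96.5% of that highest set (87.9 to 99.6) and 35.1% of the lowest. Seen from the replicate lists, 50 of the 54 replicate 2 peaks on V were overlapped by replicate 1 (92.6%, 82.1 to 97.9), against 92.1% on the other chromosomes, and 48 of the 149 replicate 1 peaks by replicate 2 (32.2%, 24.8 to 40.4). The 4 replicate 2 peaks without a partner lay from 2302654 to 2303635, 4367657 to 4367840, 8532874 to 8533087 and 18565841 to 18566080. They scored 62.1, 61.1, 51.4 and 123.

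**Figure D1:**
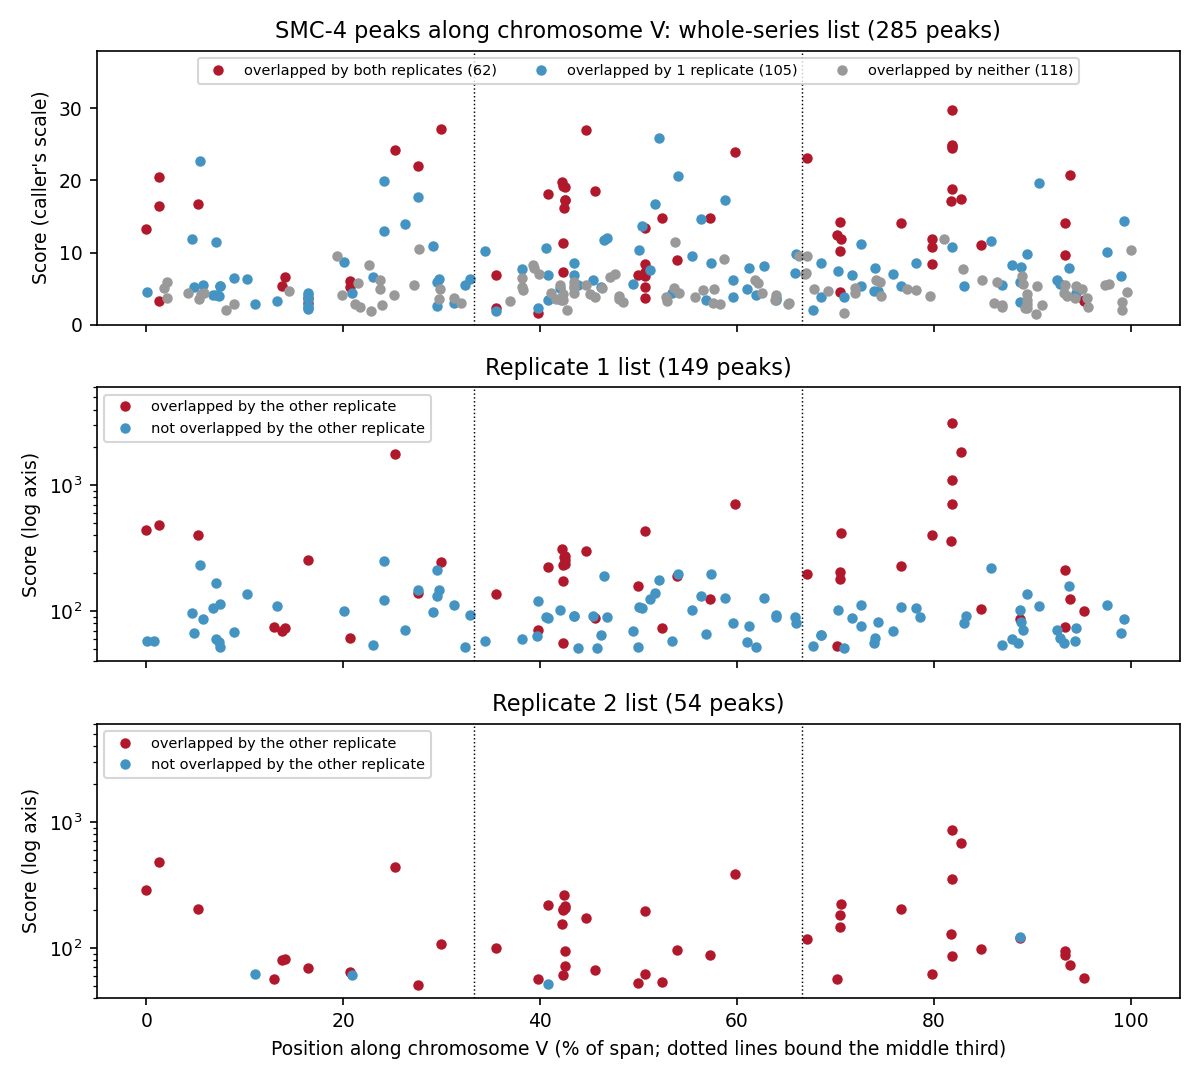
Score of every SMC-4 peak of chromosome V (vertical axes; log axes for the replicates) against its position in percent of the chromosome's span, for the whole-series list, replicate 1 and replicate 2. Colours show overlap with the replicate lists. The top scores of both replicates, 3100 and 855, stand at the same place on the right arm, and peaks found in both replicates fill most of the upper range of the whole-series list.

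The right arm carried the leading peaks of V in all 3 lists, within a single block. Between 17115443 and 17132089, 7 whole-series peaks formed a chain with gaps under 5 kb, and they covered 71.4% of those 16647 bp. From left to right they scored 17.2, 29.8, 10.7, 24.4, 18.8, 24.9 and 24.8, and 6 of the 7 were found in both replicates. The second of them, from 17117801 to 17118853, was the top V peak of the whole-series list and ranked 51 of 1989. The fourth, from 17120351 to 17125976, was the widest V peak of that list at 5626 bp.

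Each replicate listed 4 peaks in the same block. The strongest ran from 17119904 to 17126702 in replicate 1, with the ceiling score of 3100, and from 17120473 to 17126675 in replicate 2, with 855. Their right ends lay 27 bp apart and their left ends 569 bp apart. The next peak to the right scored 1097 in replicate 1 (17126721 to 17132187) and 350.1 in replicate 2 (17127848 to 17132174). The peak around the top whole-series position scored 710.0 in replicate 1 and 86.7 in replicate 2, a ratio of 8.19. This was the highest among the 48 overlapping replicate pairs on V as listed, where the ratio of 3.62 for the strongest pair is limited by the ceiling of 3100. The leftmost peak scored 361 in replicate 1 and 129.6 in replicate 2.

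A separate wide peak lay 176 kb further right. It ran from 17308493 to 17311699 in replicate 1 (score 1842) and from 17308550 to 17311696 in replicate 2 (score 686), the second-highest V score in each. The whole-series list held a single peak there, from 17308649 to 17311581, with a score of 17.5 and rank 222 of 1989.

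**Figure D2:**
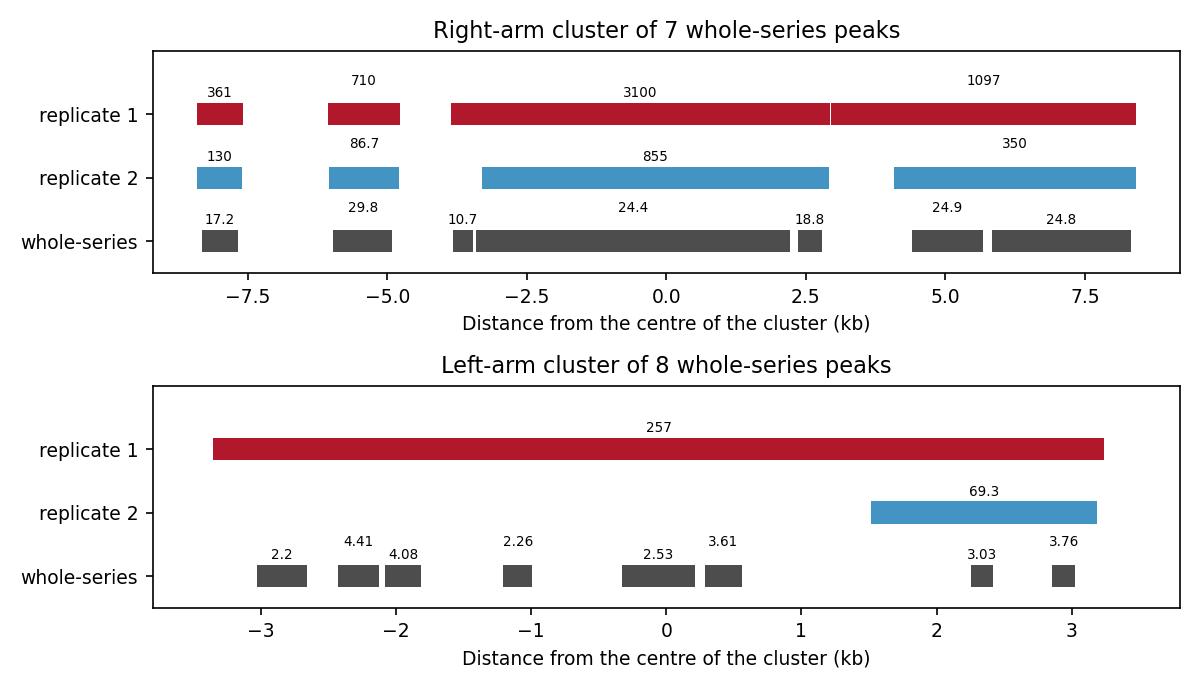
Peaks of the 3 lists in the right-arm cluster of 7 whole-series peaks (top) and the left-arm cluster of 8 (bottom), drawn by distance from the cluster's centre in kb, with each peak's score above it. On the right arm all 3 lists mark much the same stretches. On the left arm 1 peak of replicate 1 spans the whole cluster, while replicate 2 marks only its right end.

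The 20 highest-scoring V peaks of the whole-series list were spread over the chromosome, with 6 on the left arm, 7 in the centre and 7 on the right arm, the centre being the middle 33.3% of the span. They scored 19.2 to 29.8 and ranked 51 to 185 among all nuclear peaks. All 20 were overlapped by replicate 1 and 15 also by replicate 2. Widths ran from 196 to 5626 bp, with 9 under 500 bp. By whole-series score, the leading left-arm peak overlapped by both replicates lay from 6267472 to 6267774 and was only 303 bp wide. It scored 27.1 in the whole-series list, 244 in replicate 1 and 107 in replicate 2. The leading one in the centre, chosen the same way, lay from 9343876 to 9344487. It scored 27.05, 303 and 172 in the same lists. Neither held the top replicate score of its section. That score was 1766 on the left arm and 710.3 in the centre in replicate 1, and 479.7 and 387 in replicate 2. Next in order of whole-series score were 10897220 to 10897448 (25.9, replicate 1 only), then 17128165 to 17129438, 17129604 to 17132089 and 17120351 to 17125976 of the right-arm block.

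Several further peaks of this set were also narrow or isolated. The peak from 12509904 to 12510512 scored 24.0 in the whole-series list, 710.3 in replicate 1 and 387 in replicate 2, and its nearest whole-series neighbour was 44.2 kb away. Peaks at 14038479 to 14038951 and 19643024 to 19643258 scored 23.1 and 20.8 and were found in both replicates, as was 5777010 to 5777247 (21.9), where replicate 2 had its lowest V score of 50.7. Besides the one in the centre named above, 4 were found in replicate 1 only, at 1151297 to 1151636 (22.6), 11313996 to 11314299 (20.6), 5047303 to 5047555 (20.0) and 18967674 to 18967869 (19.7). The left-arm peaks 5283283 to 5285716 (24.2) and 264980 to 265920 (20.4) belong to wide regions described below. The last 3, at 8847284, 8849828 and 8895107, scored 19.8, 19.3 and 19.2 and lay in the densest stretch of the chromosome. Just outside the 20 stood a peak of the right-arm block at 18.8.

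That densest stretch was in the centre. The 20 complete windows of 1 Mb on V held 13.7 ± 4.91 whole-series peaks (mean ± SD), from 5 in the window starting at 2 Mb to 27 in the window starting at 8 Mb. On each of the other 5 chromosomes the fullest window held more, from 29 to 40 peaks. Chosen as the fullest of V, the window starting at 8 Mb held 15 of 149 replicate 1 peaks, 10.1% (5.74 to 16.1). It also held 12 of 54 replicate 2 peaks, 22.2% (12.0 to 35.6). Other windows held at most 11 peaks of replicate 1 and 6 of replicate 2, and 2 complete windows held none of replicate 2.

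Within it, 2 groups of similar peaks lay 35.4 kb apart. Between 8889402 and 8898557 the whole-series list had 4 peaks of 799 to 990 bp with scores from 16.2 to 19.2. In replicate 1 the corresponding 4 peaks scored 269, 275, 235 and 257, and in replicate 2 the first 3 scored 264, 215 and 208, while the fourth was listed as a pair of peaks at 94.3 and 71.6. Between 8847284 and 8853973 there were 4 whole-series peaks scoring 19.8, 19.3, 4.28 and 11.4. The 3 stronger ones matched replicate 1 peaks of 309, 232 and 173 and replicate 2 peaks of 154.0, 199.9 and 202. All 7 of these places thus scored above the V median in replicate 1, where they were 695 to 1093 bp wide, and 6 of the 7 did so in replicate 2.

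Peaks of V formed 42 clusters of 2 or more, taking a gap of at most 5 kb as a link. They held 116 of the 285 peaks, or 40.7%, against 37.7% of all nuclear peaks with a neighbour within 5 kb. Of the 42 clusters 16 lay in the centre and 13 on each arm, and the centre held 38.6% of all V peaks. Of the clusters 29 were pairs and 13 held 3 or more peaks, 7 of the 13 in the centre, 2 on the left arm and 4 on the right. Peaks in clusters of 3 or more were found in both replicates in 33 of 58 cases (56.9%), those in pairs in 11 of 58 (19.0%) and single peaks in 18 of 169 (10.7%). Their median scores lay closer, at 6.87, 5.31 and 5.70. Several whole-series peaks under 1 wide replicate peak count separately here.

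The largest cluster was made of weak peaks. The 8 whole-series peaks between 3434891 and 3440942 scored only 2.20 to 4.41, were 162 to 543 bp wide and covered 37.9% of 6052 bp. Replicate 1 listed a single peak over all of them, from 3434563 to 3441159 with a score of 257, and replicate 2 a peak of 1678 bp at the right end with 69.3. The longest empty stretch of V in the whole-series list, 623 kb from 3440943 to 4063628, began at the end of this cluster, and replicate 1 was empty from there for 754 kb. In the centre, 6 whole-series peaks between 10605753 and 10612422 scored 3.70 to 13.5 and covered 79.3% of 6670 bp. Further clusters had little replicate overlap: the 6 peaks from 9086916 to 9095934 scored 4.36 to 8.61, with 2 found in replicate 1, and the 5 from 18722953 to 18728420 scored 2.25 to 9.78, with 1 found there. Replicate 2 listed nothing in either.

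Peaks of at least 2 kb numbered 10 in replicate 1 and 9 in replicate 2, while the whole-series list held 5. They made up 36.9%, 55.0% and 16.1% of the base pairs under V peaks in those lists. Joined over both replicates they defined 10 wide regions of 42643 bp in all, 5 on the left arm, 1 in the centre and 4 on the right arm. The whole-series list placed 30 of its peaks in them, covering 27580 bp, and 22 of the 30 were found in both replicates. Because the regions are made of replicate peaks, overlap with a replicate follows largely from their definition. The median whole-series score was 7.08 inside these regions and 5.48 outside.

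In 4 of the 10 wide regions, including the one 176 kb right of the block, both ends of the replicate peaks lay within 57 bp of each other. Near the left end, a region from 264963 to 267268 in replicate 1 and from 264978 to 267317 in replicate 2 scored 484 and 479.7. The whole-series list held 3 peaks there, scoring up to 20.4. The region from 5283185 to 5285916 in replicate 1 differed from that of replicate 2 by 20 bp at its left end and 17 bp at its right end, and scored 1766 in replicate 1 and 441 in replicate 2, with a single whole-series peak of 24.2. On the right arm, 16707131 to 16709450 scored 400.3 in replicate 1 and 62.3 in replicate 2, with 3 whole-series peaks of up to 11.8. The widest V peak of replicate 1, 6905 bp from 10605627 to 10612531 (431), matched 2 adjoining peaks of replicate 2 (195.6 and 61.8) and 6 whole-series peaks.

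A large width did not always come with a high score. The left-arm region at 4333170 spanned 2886 bp in replicate 1 and 3554 bp in replicate 2, yet scored 61.1 and 63.9, below the lower quartile of V scores in each list (69.4 and 64.6). The whole-series list covered 13.2% of it with 2 peaks of 5.25 and 6.11. The region from 6173592 to 6176197 scored 213 in replicate 1 and had no replicate 2 peak. That score is above the upper quartile of V scores in replicate 1 (173). The region was covered to 9.32% by 1 whole-series peak of 5.88. Together with the weak 8-peak cluster, where coverage was 34.8%, these 3 left-arm regions had the lowest whole-series coverage of the 10, and the other 7 were covered to between 68.8% and 94.3%.

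**Figure D3:**
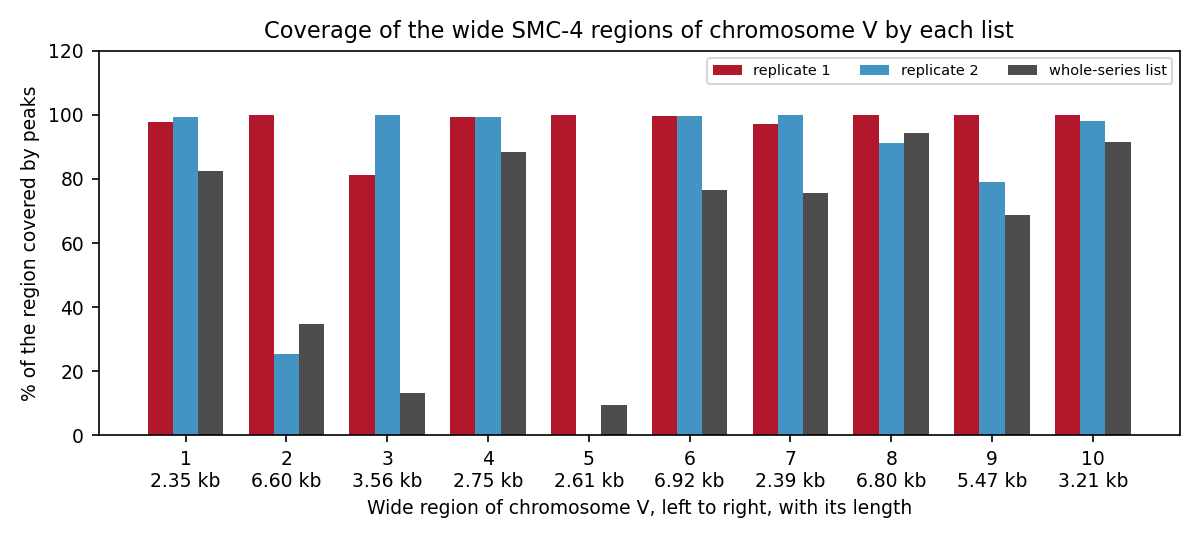
Percent of each wide region of chromosome V that is covered by peaks of replicate 1, replicate 2 and the whole-series list. The regions run from left to right along the chromosome, with their lengths in kb. Whole-series coverage is 34.8%, 13.2% and 9.32% in regions 2, 3 and 5, and at least 68.8% in the others.

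The outermost left end of V was marked as well. A peak starting at base 1 ended at 327 in the whole-series list (score 13.2), at 387 in replicate 1 (442) and at 379 in replicate 2 (285). It ranked 357 of 1989 in the whole-series list, and 52 of 296 in replicate 2.

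Scores of the 2 replicates ran together over the 48 replicate 1 peaks of V that had a replicate 2 partner. Spearman's rho was 0.757 and Pearson's r of the log10 scores was 0.818, given as descriptions across peaks. Replicate 1 scored higher in 40 of the 48 pairs, with a median ratio of 1.49 and a range from 0.731 to 8.19. These ratios compare 2 separately called lists of unstated scale and unknown depth, so they do not measure a difference in SMC-4 signal. Over the 62 whole-series peaks found in both, rho was 0.410 with replicate 1 scores and 0.464 with replicate 2 scores. Whole-series peaks under the same wide replicate peak share its score there, so these coefficients cannot be set against that of the 48 pairs.

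**Figure D4:**
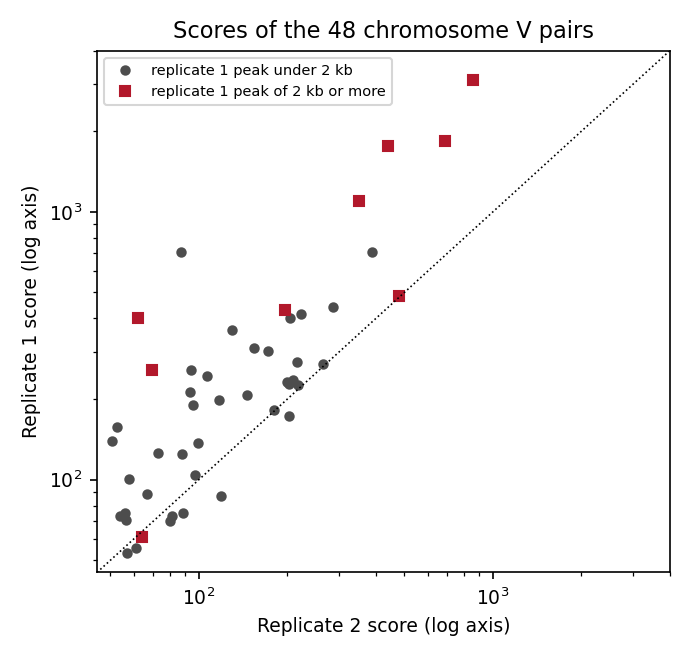
Replicate 1 score against replicate 2 score for the 48 overlapping pairs of chromosome V peaks, both on log axes, with the line of equal scores. Squares are replicate 1 peaks of at least 2 kb. The pairs lie mostly above the line, 40 of 48, and the 4 highest replicate 1 scores are all wide peaks.

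The arms and the centre of V were then compared. The centre, from 6.97 to 13.9 Mb, held 110 of 285 whole-series peaks, 38.6% (Clopper-Pearson 32.9 to 44.5), against 33.3% of the span. It held 57 of 149 in replicate 1, 38.3% (30.4 to 46.6), and 22 of 54 in replicate 2, 40.7% (27.6 to 55.0). The excess did not pass in any list (two-sided exact binomial, adjusted over the 3 lists, p = 0.205, 0.251 and 0.251). By density, the centre had 15.8 peaks per Mb (13.0 to 19.0), the left arm 10.9 (8.59 to 13.6) and the right arm 14.2 (11.5 to 17.3). The left arm was the sparsest section in both replicates too, with 5.59 peaks per Mb in replicate 1 and 1.86 in replicate 2.

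No difference in strength or grouping between centre and arms passed. In the centre 25 of 110 whole-series peaks were found in both replicates (22.7%), and on the arms 37 of 175 (21.1%), with adjusted Fisher's exact p = 0.770. Peaks in the highest 10% of all nuclear scores were 7 of 110 in the centre (6.36%) and 14 of 175 on the arms (8.00%; adjusted Fisher's exact p = 0.770). A neighbour within 5 kb was found for 42.7% of centre peaks and 39.4% of arm peaks (adjusted Fisher's exact p = 0.770). For the share in both replicates the intervals ran from 15.3% to 31.7% in the centre and from 15.3% to 27.9% on the arms, so a difference of several points would not have been detectable with this number of peaks. The single highest scores of the replicate lists were on the arms. The maximum was 710.3 in the centre and 3100 on the arms in replicate 1, and 387 in the centre and 855 on the arms in replicate 2. Median scores lay closer, at 102 in the centre and 98.8 on the arms in replicate 1, and 97.5 and 101.9 in replicate 2. In the whole-series list the medians were 6.10 in the centre and 5.48 on the arms, and the maxima 27.05 and 29.8.

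V differed from the other 5 chromosomes in the share of peaks found in both replicates. It was 62 of 285 on V, 21.8% (17.1 to 27.0), and 243 of 1704 on the others, 14.3% (12.6 to 16.0). The difference of 7.49 percentage points passed (two-sided Fisher's exact test, adjusted over 4 comparisons, p = 0.00722), and against the other autosomes alone it was 8.52 points. The test counts peaks and pools the other 5 chromosomes, so its p-value does not measure the spread between chromosomes. V had the highest share of the 6 chromosomes, ahead of IV (18.1%), X (16.9%), II (15.6%), III (11.4%) and I (8.59%), although its interval overlapped those of IV, X and II. Counted from the replicate 1 list, a setting chosen after the data were seen, 32.2% of V peaks and 21.2% of peaks elsewhere had a replicate 2 partner (adjusted Fisher's exact p = 0.0177).

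By single replicate, replicate 1 overlapped 57.5% of V peaks and 57.4% of the others, a difference of 0.149 points (Fisher's exact p = 1). Replicate 2, whether or not replicate 1 overlapped too, overlapped 22.8% and 15.2%, a difference of 7.61 points (adjusted Fisher's exact p = 0.00715). Wide peaks were also more frequent on V than on the other chromosomes together. At least 2 kb wide were 6.71% of replicate 1 peaks on V, against 3.12% elsewhere. In replicate 2 it was 16.7% on V, against 10.3% elsewhere. Single chromosomes varied: III had 18.2% wide peaks in replicate 2, above V, but 11.4% of its whole-series peaks in both replicates. In replicate 1 V had the highest wide share. The part of wide peaks in the difference was not tested. Outside such wide peaks 15.7% of 255 V peaks and 10.9% of 1623 others were found in both replicates. The test takes neighbouring peaks as independent. In the stronger 50% of the list the shares were 40.8% on V and 24.4% elsewhere (16.4 points, adjusted Fisher's exact p = 0.00097). The call was lost when peaks within 10 kb were merged (2.25 points, adjusted Fisher's exact p = 0.400), when overlap had to cover 50% of both peaks (3.30 points, adjusted p = 0.161) and without the 7-peak cluster of the right arm (5.88 points, adjusted p = 0.0577).

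**Figure D5:**
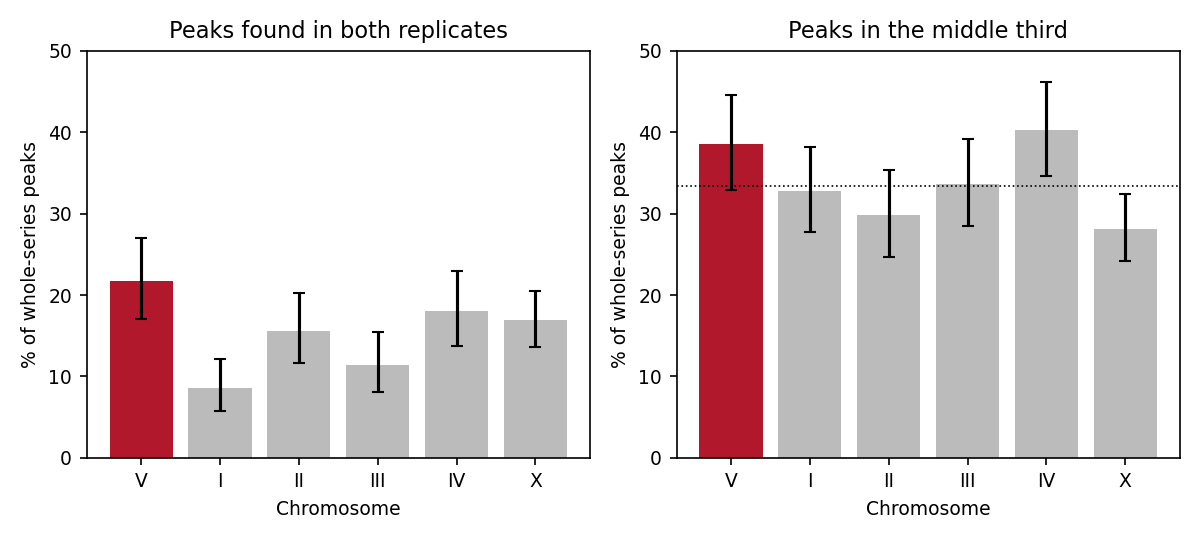
Percent of whole-series peaks found in both replicates (left) and lying in the middle section of the chromosome (right), for chromosome V and the other nuclear chromosomes. Bars are shares of peaks with 95% Clopper-Pearson intervals, and the dotted line marks 33.3% of span. V has the highest share in both replicates, 21.8%, and its central share of 38.6% is below that of IV, 40.3%.

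On the other measures V did not differ detectably. Its central share was 38.6%, against 32.4% on the other chromosomes (6.20 points, Fisher's exact p = 0.0418, adjusted p = 0.0835). In the highest 10% of scores, which held 10.0% of all nuclear peaks, V had 21 of 285 (7.37%, 4.62 to 11.0) and the others 178 of 1704 (10.4%, 9.03 to 12.0), with adjusted Fisher's exact p = 0.179. A neighbour within 5 kb was found for 40.7% of V peaks and 37.2% of the others (adjusted Fisher's exact p = 0.262). The median whole-series score was 5.52 on V, the lowest of the 6 chromosomes, against 6.19 to 7.03 on the others. In replicate 2 V had the highest median width, 564 bp, against 273.5 to 438 bp on the others; neither median was tested.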

How the data were processed

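Alignment used BWA and the ce10 genome, per the submitters' processing notes. The deposited files are 3 peak lists on WormBase WS220, per the file headers. The caller was MACS for each replicate and MACS v2 for the series as a whole, per the file's source columns. Neither the control and cutoffs nor the use of replicates for the whole-series list is stated in any source, so the lists cannot be treated as independent. Each peak has 1 deposited score from the authors' caller, of unstated scale. No read counts are given, so depth is unknown, and the intervals reflect only how many peaks were counted.

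Positions are 1-based. Chromosome spans end at the last listed peak (20.9 Mb for V), a peak was placed by its midpoint, and overlap meant at least 1 bp. Mitochondrial peaks were left out. Shares carry 95% Clopper-Pearson and densities exact Poisson intervals. Central share was tested by exact binomial tests, other shares by Fisher's exact tests, all two-sided with Benjamini-Hochberg adjustment over 3, 4 and 3 comparisons, and taking peaks as independent. Alternatives changed overlap rule, centre, merging, score cutoff, distances and replicates. Regions named are the 20 highest-scoring whole-series peaks and, per section, the highest-scoring whole-series peak overlapped by both replicates. Also named are replicate peaks of at least 2 kb and the 5 largest clusters. Others were chosen after their values were seen. Members, tests and rules were chosen with earlier results of these data known. Code was tested on simulated data, in Python 3.11.15 with scipy 1.17.1, numpy 2.4.6, pandas 2.3.3 and matplotlib 3.10.9.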

Additional observations from a re-analysis of the deposited data

How the results depend on the processing

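The share of V peaks found in both replicates exceeded that of the other chromosomes by 7.49 points. It stayed positive in all alternatives and reached 16.4 in the stronger 50% of the list. The call was lost with peaks within 10 kb merged (2.25), overlap of 50% of both peaks (3.30) or without the 7-peak cluster (5.88, chosen after the data were seen). With 1 replicate left out, the measure becomes overlap with the other replicate. Its difference was 0.149 for replicate 1, not called, and 7.61 for replicate 2. V's deficit in the highest 10% of scores, -3.08 points, was called only with peaks within 10 kb merged (-5.32). V's neighbour share, 3.50 points higher, turned to -0.554 with peaks within 1 kb merged, -0.240 in the stronger 50% of the list and -4.45 with a distance of 10 kb. Between centre and arms, the share in both replicates (1.58 points) turned to -0.219 with the middle 50% as centre, -0.495 with 10 kb merging and -0.792 in the stronger 50%. The share overlapped by a single replicate differed by 1.04 for replicate 1 and -0.130 for replicate 2. The share of highest scores (-1.64) turned to 1.84 for the highest 20%, and the neighbour share (3.30) to -2.70 with the middle 50% and -2.10 with 1 kb merging. None of these turned values passed, and the cause was not tested. The central share of V passed in no alternative, and its whole-series excess of 5.26 points was 10.0 in the stronger 50% of the list (adjusted exact binomial p = 0.0764) and 2.18 without the densest window of 1 Mb, also chosen after the data were seen. In replicate 2 the excess of 7.41 points was 0 with peaks within 10 kb merged.

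Overlap of V peaks with replicate 1, replicate 2 and both was 39.3%, 14.4% and 12.3% when it had to cover 50% of both peaks, and 84.2%, 40.8% and 40.8% in the stronger 50% of the list. Overlap with replicate 1 was 50.5% by midpoints within 500 bp. With 1 replicate left out, the overlap counted is that with the other, 57.5% for replicate 1 and 22.8% for replicate 2. Peaks of at least 1 kb and at least 3 kb numbered 8 and 1 in the whole-series list, 21 and 5 in replicate 1, and 14 and 5 in replicate 2. No paired analysis was possible because the peak lists cover the SMC-4 samples only, so no 2 groups of samples were compared.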
